A study of Homo sapiens with 8 samples.

Results

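Moesin (MSN), ezrin (EZR) and radixin (RDX) form the ERM family of linkers between the plasma membrane and actin, merlin (NF2) is their tumour suppressor relative, and villin (VIL1) bundles and severs actin in microvilli. All probe sets that the array's probe table assigns to 1 of these 5 genes alone were taken, and each was read by itself. These were 5 of 18132 genes measured, and 26 of the 44988 probe sets that carry a single gene symbol, 3 for MSN, 5 for EZR, 8 for RDX, 3 for VIL1 and 7 for NF2. The genes were picked with the difference between LR3 and parental cells already known for MSN and VIL1. Level differences between LR3 and another line are therefore given for the 5 genes as a description, without a test.

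The samples were total RNA from H3122, a lung adenocarcinoma cell line driven by the EML4-ALK fusion kinase, and from 2 derivatives resistant to the ALK inhibitor ceritinib, H3122-LR2 and H3122-LR3. Parental and LR2 cells were measured with no agent, after 6 h with 1000 nM crizotinib and after 6 h with 1000 nM ceritinib. LR3 cells were measured with no agent and after 6 h with 1000 nM ceritinib. LR2 and LR3 derive from the parental line, and whether they keep its fusion was not tested here. Crizotinib and ceritinib both inhibit ALK. Each of these 8 conditions had 1 array. Whether LR2 and LR3 are single clones, and whether the dishes were grown separately, was not given in the sources used here. P-values measure the spread that the fitted terms leave between these arrays, since no condition was repeated. That spread may be technical, and in the additive fit of line and agent it also holds any difference between lines in response.

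ERM proteins bind the tails of membrane proteins and phosphoinositides through an N-terminal FERM domain, and actin filaments through the C-terminal end. In the resting molecule the 2 ends hold each other, and PIP2 together with phosphorylation of a C-terminal threonine by kinases such as ROCK, LOK and SLK opens it. Ezrin is the usual ERM protein of epithelia, moesin that of leukocytes and endothelium, and radixin is known from liver and inner ear. Villin belongs to the gelsolin superfamily and is known from the brush border of gut and kidney, while merlin acts upstream of the Hippo kinases.

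The signals are log2 values, so 1 unit is a 2-fold difference. A probe set was tested when it exceeded 5.36, the median of all values in the table, in at least 2 of the 8 arrays. Of the 26 probe sets, 17 passed, and 9 were too dim. The 2 MSN probe sets and 1 VIL1 probe set that passed did so through the 2 LR3 arrays alone. They are described without a test, which leaves 14 probe sets of EZR, RDX and NF2 for the counts of calls. Probe sets whose names end in _s_at or _x_at can also read related transcripts, and those ending in _a_at read several transcripts of 1 gene. Levels of different probe sets depend on their probes and are not compared with each other.

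The epithelial label held in every line. Of 12 epithelial and lung adenocarcinoma markers, 11 were above the floor in all arrays, with EPCAM at 12.4 and the lung factor NKX2-1 at 10.99 in parental, 10.86 in LR2 and 10.61 in LR3 cells, as line means. The list mean ran from 9.90 to 10.0 over the 3 lines. Of 10 fibroblast markers only LUM, a matrix proteoglycan, exceeded the floor, with a mean of 3.60 in parental, 4.50 in LR2 and 6.12 in LR3 cells. That list's mean lay between 3.52 and 3.61 in parental arrays, 3.64 and 3.78 in LR2 and 3.84 and 3.87 in LR3. Leukocyte markers averaged 4.61 to 4.67, 4.52 to 4.73 and 4.63 to 4.65 in the 3 lines, with the pan-leukocyte gene PTPRC below the floor at 2.69 to 2.81 as line means. Of that list, CORO1A (7.77 to 8.24) and LCP1 (6.44 to 6.65) were above the floor in all 8 arrays and CD68 (5.22 to 5.41) in 4. Endothelial markers averaged 4.66 to 4.74, 4.68 to 4.72 and 4.59 to 4.65, with CDH5 (6.23 to 6.27) and KDR (5.90 to 6.39) above the floor in all 8 arrays, VWF (5.38 to 5.61) in 6 and PECAM1 in 0. Gut and hepatobiliary markers averaged 4.69 to 4.88, 4.81 to 4.91 and 4.76 to 4.80. Of these, TFF3 (9.19 to 9.63), GPA33 (5.79 to 5.98), APOA1 (5.44 to 5.55) and the gut factor CDX2, at 6.81, 7.08 and 6.80, were above the floor in all 8 arrays, HNF4G in 7 and MUC2 in 2. The part of the LUM difference in any result below was not tested. In bulk RNA, fewer cells of a type and less RNA per cell cannot be told apart.

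Of the 5 genes, moesin had the widest range of signal over the 8 arrays. MSN is transcribed from 2 start regions in RefSeq (build GRCh38.p14), and the 250 bases before each are printed because the members' largest difference between lines lies in this gene. The first window is chrX:65588127-65588376 and the second chrX:65667404-65667653, both on the plus strand, with GC boxes (GGGCGG on either strand) in capitals.
MSN_1: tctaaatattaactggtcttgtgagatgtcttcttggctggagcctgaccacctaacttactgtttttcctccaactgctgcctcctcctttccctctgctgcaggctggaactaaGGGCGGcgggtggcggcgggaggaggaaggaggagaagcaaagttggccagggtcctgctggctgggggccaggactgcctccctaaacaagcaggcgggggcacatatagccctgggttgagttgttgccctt
MSN_2: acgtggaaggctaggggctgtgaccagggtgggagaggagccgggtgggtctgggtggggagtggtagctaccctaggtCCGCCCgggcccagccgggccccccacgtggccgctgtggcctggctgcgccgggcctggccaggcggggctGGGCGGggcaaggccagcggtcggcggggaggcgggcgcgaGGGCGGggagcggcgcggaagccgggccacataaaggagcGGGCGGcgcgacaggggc
The first window was 57.2% G and C with 1 GC box, and the second was 78% G and C with 4 GC boxes and 1 E-box (CACGTG), 147 bases before the start. Over 35116 promoter windows of this length, 42.6% held a GC box and 6.34% an E-box. The letters describe the windows only, since none of the arrays measured binding or start site use.

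The brightest MSN probe set, 11715717_s_at, read 4.04 in untreated, 4.09 in crizotinib-treated and 4.03 in ceritinib-treated parental cells. In LR2 cells it read 3.66, 3.44 and 3.28 in the same order. In LR3 cells it read 6.80 untreated and 6.87 with ceritinib. The order was LR2, parental, LR3 with no overlap between lines, and only the LR3 arrays lay above the floor. LR3 exceeded the parental line by 2.76 without agent and 2.84 with ceritinib, 6.96-fold on average, and exceeded LR2 by 3.14 and 3.59, or 10.3-fold. Because the other lines were below the floor, where signal is compressed, these folds may understate the ratio of transcripts.

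A second MSN probe set, 11715716_at, read 3.44, 3.64 and 3.81 in parental cells, 3.23, 3.20 and 3.34 in LR2 cells, and 5.74 and 5.73 in LR3 cells. LR3 was again the line that stood above, by 2.30 and 1.92 over parental cells in the matched arrays. The third, 11749374_a_at, stayed under the floor in all arrays, with 3.62 to 3.97 in parental and LR2 cells and 4.95 and 5.03 in LR3 cells. All 3 probe sets of the gene were thus higher in both LR3 arrays than in any other array. Over all 23773 probe sets tested, 0.202% had every LR3 array at least 1 unit above every parental array, a background given without weight since MSN was picked on this contrast.

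**Figure D1:**
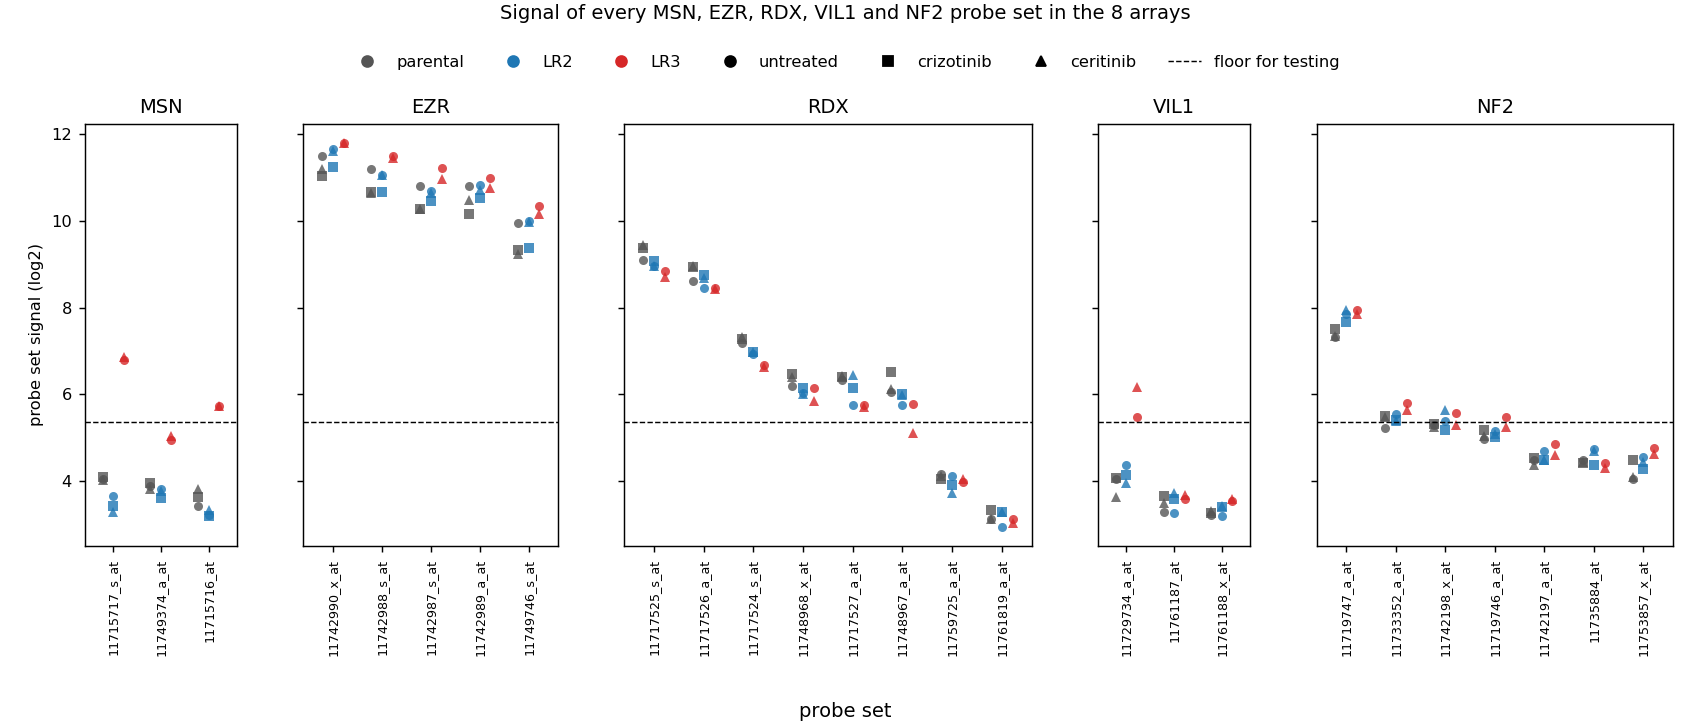
Log2 signal (vertical axis) of all 26 probe sets (horizontal axis, a panel for each gene) in the 8 arrays, 1 point an array, with the line shown by colour, the agent by marker and the floor of 5.36 by a dashed line. MSN and VIL1 lie above the floor only in LR3 arrays and all EZR points lie between 9.23 and 11.79.

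In LR2 the MSN signals lay below those of parental cells, with both lines below the floor. The matched differences were -0.38, -0.65 and -0.75 on 11715717_s_at and -0.21, -0.44 and -0.47 on 11715716_at, in the order untreated, crizotinib, ceritinib. These are given as a description, since both probe sets entered the fit only through the LR3 arrays and the parental arrays are those on which the gene was picked.

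Ezrin was abundant in all 3 lines. The 250 bases before its start, chr6:158818236-158818485 on the minus strand of GRCh38.p14, are printed for comparison with MSN, with an AP-1 motif (TGANTCA) in capitals.
EZR_1: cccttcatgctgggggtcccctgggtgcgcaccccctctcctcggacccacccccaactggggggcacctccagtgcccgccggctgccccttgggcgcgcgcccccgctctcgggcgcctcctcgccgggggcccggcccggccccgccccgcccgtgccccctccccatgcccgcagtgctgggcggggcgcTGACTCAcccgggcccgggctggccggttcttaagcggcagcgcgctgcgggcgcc
The motif lies 56 bases before the start, and 6.57% of all windows held one. The window was 80.8% G and C and held 3 GC boxes. RDX, at 82% G and C, also held 3 GC boxes and no AP-1 motif.

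The brightest EZR probe set, 11742990_x_at, read 11.50 untreated, 11.03 with crizotinib and 11.18 with ceritinib in parental cells. In LR2 cells the same readings were 11.66, 11.24 and 11.60, and in LR3 cells 11.79 untreated and 11.78 with ceritinib. The parental and LR2 ranges overlapped, and both LR3 arrays lay above them. Across its 5 probe sets, EZR was higher in LR3 than in parental cells by 0.19 to 0.40 without agent and by 0.27 to 0.92 with ceritinib. Of the 5, 4 did not overlap between the lines, beside 25.7% of all probe sets tested with LR3 above in this way. The 5 read 1 gene in the same arrays and are not separate observations. In limma's additive model of line and agent, with p-values adjusted over all probe sets tested, LR2 differed from parental cells by 0.10 to 0.29. None of the 5 was called, with adjusted p from 0.0594 to 0.560. With an intensity trend and robust estimation together in the variance prior, 2 of them were called, 11742989_a_at (adjusted p = 0.0405) and 11742990_x_at (adjusted p = 0.0106).

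Radixin signal was highest in parental cells on the brightest probe set. This probe set, 11717525_s_at, read 9.10 untreated, 9.38 after crizotinib and 9.44 after ceritinib in parental cells. The LR2 arrays read 8.96, 9.06 and 8.96, and the LR3 arrays 8.84 and 8.70. The 3 lines did not overlap, with parental cells highest and LR3 cells lowest. All 6 RDX probe sets above the floor were lower in LR3 than in parental cells, by 0.05 to 0.58 without agent and by 0.53 to 1.02 with ceritinib. In all 6 the arrays of these lines did not overlap, beside 22.2% of all probe sets tested with LR3 below in this way. The 6 read 1 gene in the same arrays and are not separate observations.

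Between LR2 and parental cells, all 6 RDX probe sets had negative differences, from -0.32 to -0.21, and 1 passed the test. That one, 11717524_s_at, read 7.19, 7.27 and 7.31 in parental cells and 6.92, 6.97 and 6.98 in LR2 cells. It fell by 0.30 ± 0.07 (SE, as after every ± sign; limma adjusted p = 0.0219). The call was lost when any single parental or LR2 array was left out, with an adjusted p of 0.0595 to 0.0900. The brightest, 11717525_s_at, had a difference of -0.31 ± 0.10 and a limma adjusted p of 0.0553, which became 0.0397 after quantile normalization, 0.0217 with the trend and robust prior and 0.0316 without the untreated parental array. The other RDX probe sets had an adjusted p of 0.0658 to 0.197, of which 11748968_x_at was called without the untreated parental array (0.0405) and without either LR3 array (0.0452). A further 2 RDX probe sets were too dim, at 2.95 to 3.33 and 3.74 to 4.16.

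**Figure D2:**
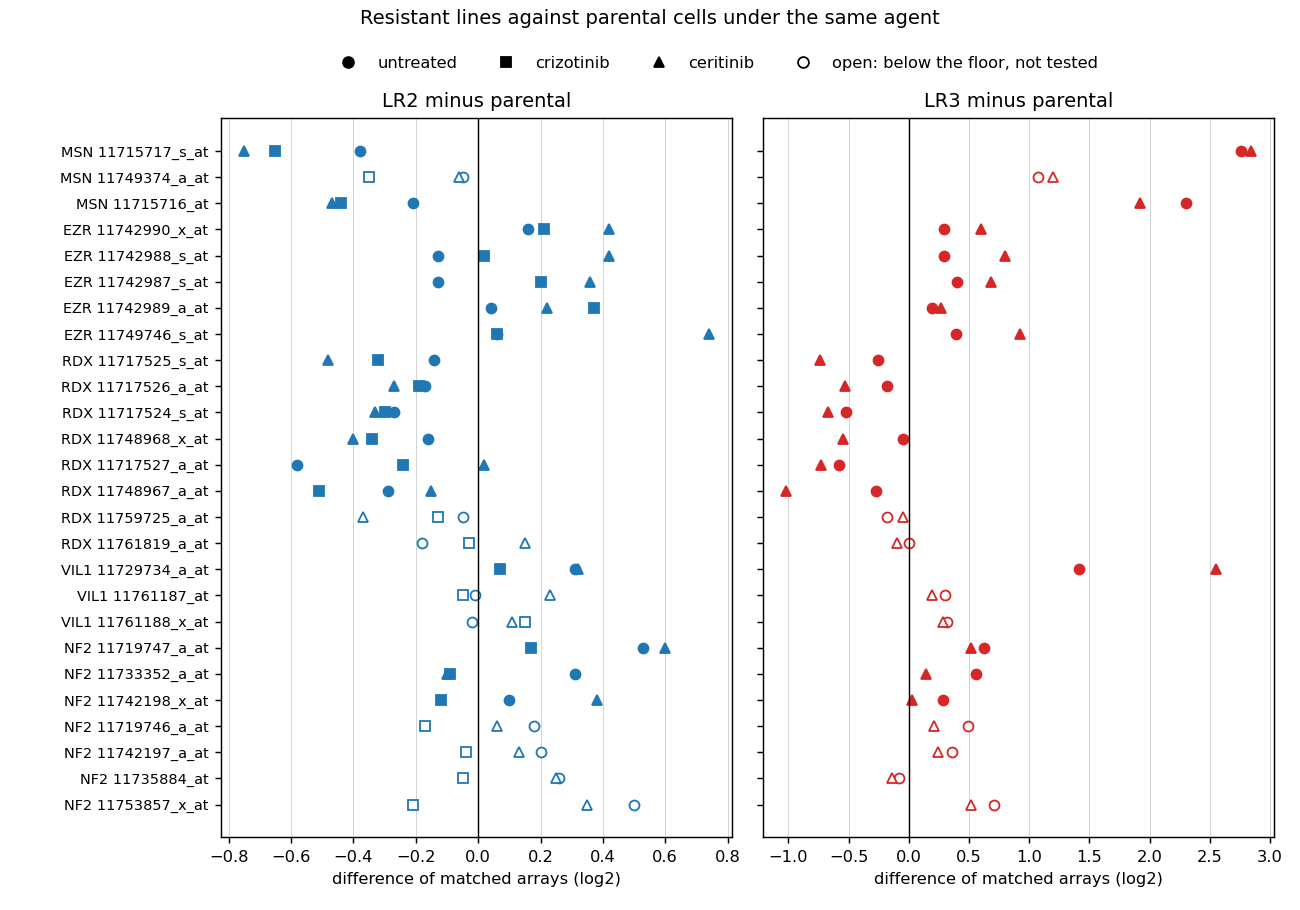
Differences from parental cells in log2 units (horizontal axis; the panels have different ranges) for all 26 probe sets, LR2 on the left and LR3 on the right, 1 point a pair of arrays of the same agent, with open points for the 9 probe sets not tested. In LR3, MSN 11715717_s_at lies at 2.76 and 2.84 and VIL1 11729734_a_at at 1.41 and 2.55, and the 6 tested RDX probe sets lie below 0.

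Villin was above the floor in LR3 only, on 1 of its 3 probe sets. That probe set, 11729734_a_at, read 4.06 untreated, 4.08 after crizotinib and 3.63 after ceritinib in parental cells. It read 4.37, 4.15 and 3.95 in LR2 cells, and 5.47 untreated and 6.18 with ceritinib in LR3 cells. Parental and LR2 cells overlapped, and both LR3 arrays lay above them. LR3 exceeded parental cells by 1.41 without agent and 2.55 with ceritinib, 3.94-fold on average, and exceeded LR2 cells by 1.10 and 2.23. As for MSN, the other lines were below the floor and the fold may understate the ratio of transcripts. The other VIL1 probe sets were dim in all arrays. In the matched arrays, LR3 exceeded parental cells by 0.30 and 0.19 on 11761187_at and by 0.32 and 0.28 on 11761188_x_at. The 3 probe sets therefore shared a direction and differed in size, and averaging them lowered the estimate from 1.94 to 0.825. LR2 differed from parental cells by 0.31, 0.07 and 0.32 on 11729734_a_at, all below the floor.

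Merlin was higher in both resistant lines on its brightest probe set. For NF2, 11719747_a_at read 7.32, 7.50 and 7.34 in parental cells, 7.85, 7.67 and 7.94 in LR2 cells, and 7.94 and 7.86 in LR3 cells. All parental arrays lay below all arrays of the resistant lines, and LR2 and LR3 overlapped. LR2 exceeded the parental line by 0.43 ± 0.10 (limma adjusted p = 0.0174). The call was lost without the untreated parental array (0.0736), the untreated LR2 array (0.0755) or the LR2 ceritinib array (0.0820). The other tested NF2 probe sets gave 0.04 ± 0.10 and 0.12 ± 0.12, with limma adjusted p of 0.821 and 0.513. The 4 dim ones lay between 4.05 and 5.47. LR3 exceeded parental cells by 0.62 and 0.52 on 11719747_a_at, and by 0.28 to 0.62 without agent and 0.03 to 0.52 with ceritinib over the 3 tested.

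Of the 14 probe sets of EZR, RDX and NF2, 2 were called between LR2 and parental cells by limma, NF2 higher and RDX lower on 1 each. At an unadjusted p under 0.05 there were 7. Among all 23773 tested, 21.3% were called (13.3% higher, 8.07% lower), so this count is no larger than the background, and 35.3% had an unadjusted p under 0.05. Counted by overlap, 1 of 14 had all LR2 arrays above and 4 all below the parental arrays, against 19.5% above and 12.7% below (32.1% in either direction) over all probe sets tested. For LR3 against parental cells the counts were 6 above and 6 below, beside 25.7% and 22.2% (47.8% in either direction). For LR3 against LR2 they were 5 above and 3 below, beside 20.2% and 24.8% (45.1%). The contrasts with LR3 were used to pick the genes, and all of them share arrays. The 14 probe sets read only 3 genes in these arrays and are not separate observations.

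The ezrin signal was lower in both parental arrays of ALK inhibitor than in the untreated one. All 5 EZR probe sets were below the untreated parental array, by 0.47 to 0.63 with crizotinib and by 0.31 to 0.71 with ceritinib. Among all probe sets tested, 34.7% lay below in both, and 6.89% by over 0.3 in both. In LR2 cells the 5 were lower by 0.22 to 0.62 with crizotinib, while with ceritinib the differences ran from -0.13 to 0.00. In LR3 cells ceritinib gave -0.25 to -0.01. These are differences between single arrays.

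**Figure D3:**
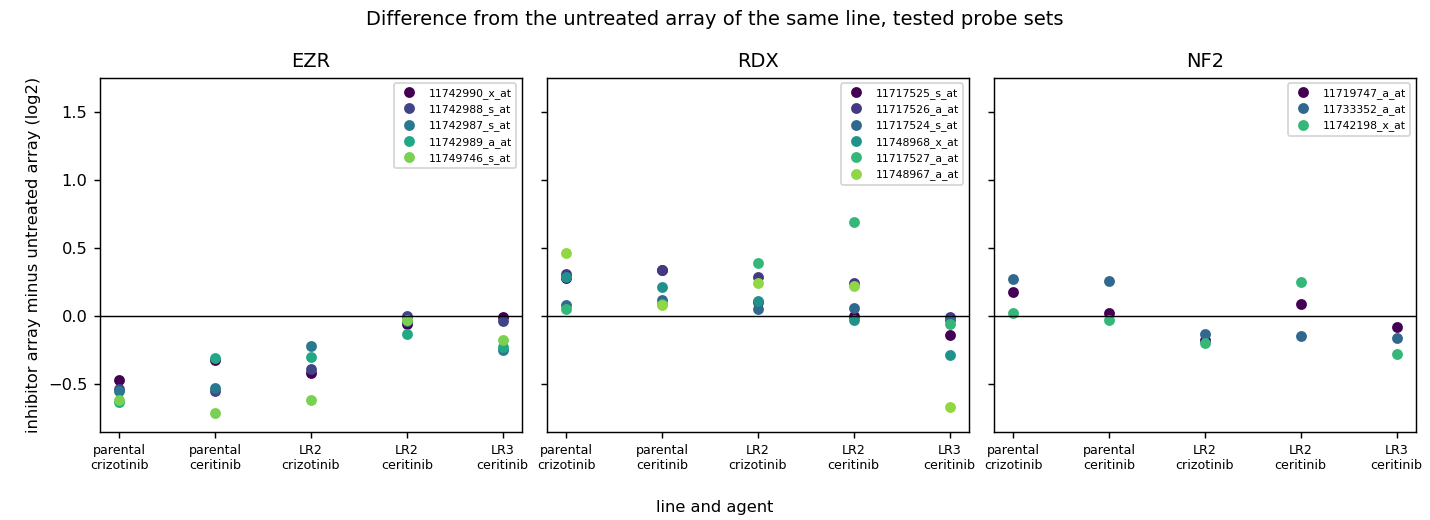
Inhibitor minus untreated log2 signal (vertical axis) in each line and agent (horizontal axis) for the tested probe sets of EZR, RDX and NF2, 1 point a probe set, coloured by probe set. EZR lies between -0.71 and -0.31 in both parental inhibitor arrays and between -0.13 and 0.00 in LR2 with ceritinib, while RDX lies above 0 in parental cells and below 0 in LR3.

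Across lines, none of the 14 passed for crizotinib, with 6 at an unadjusted p under 0.05 by limma. These were the 5 EZR probe sets, which read 1 gene and are not separate observations, and RDX on 11717526_a_at. The background was 2.09% called (1.54% higher, 0.551% lower) and 21.0% at that unadjusted p. For EZR the crizotinib differences were -0.59 to -0.38, and the nearest to the threshold was 11742989_a_at at -0.47 ± 0.10 (limma adjusted p = 0.0539). Without the parental ceritinib array all 5 EZR probe sets were called, at 0.00231 to 0.0367, and with the trend and robust prior 2 were, at 0.0117 and 0.0144. For ceritinib none of the 14 passed, with 2 at an unadjusted p under 0.05, beside 0% called and 17.0% at that unadjusted p in limma's fit over all probe sets. EZR differed there by -0.31 to -0.13 (limma adjusted p = 0.228 to 0.476).

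The radixin differences were of the opposite sign in the parental arrays, single arrays again. All 6 tested RDX probe sets were above the untreated parental array, by 0.05 to 0.46 with crizotinib and 0.08 to 0.34 with ceritinib. In LR3 cells all 6 were below the untreated array after ceritinib, by 0.01 to 0.67. These 6 probe sets read 1 gene in the same arrays and are not separate observations. The share of all probe sets with the same directions was not counted, so no weight is given to the agreement among them. Villin on 11729734_a_at was lower with ceritinib by 0.43 in parental and 0.42 in LR2 cells and higher by 0.71 in LR3 cells, the first 2 lines being below the floor. Moesin on 11715717_s_at differed by -0.01 in parental, -0.38 in LR2 and 0.07 in LR3 cells with ceritinib.

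Whether a line responded differently from parental cells was tested in a second limma model with inhibitor and untreated arrays of each line. Crizotinib and ceritinib arrays of parental and LR2 cells were taken as 1 condition, while LR3 cells had ceritinib only. The LR3 difference thus sets a ceritinib response against the mean of 2 agents in parental cells. The spread in this model is that between the 2 agents within parental and LR2 cells, so differences between the agents widen it. The LR3 response is another contrast of arrays that also entered the choice of genes. None of the 14 passed, for LR2 or for LR3, and 0% of all 23773 did in either. At an unadjusted p under 0.05 there were 1 of 14 for LR2, beside 2.46% of all, and 4 of 14 for LR3, beside 4.69%. These 4 were 3 RDX probe sets at -0.94 ± 0.26, -0.54 ± 0.18 and -0.45 ± 0.17, and NF2 on 11733352_a_at at -0.43 ± 0.16. The limma adjusted p was 0.930 for each of them. The 3 RDX probe sets read 1 gene in the same arrays and are not separate observations. The LR3 response itself rests on 1 pair of LR3 arrays. For EZR the difference of responses from parental cells was 0.16 to 0.41 in LR2 and 0.24 to 0.51 in LR3, and none passed.

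Genes that act with these proteins were read from 8 lists, each gene by its brightest probe set, with the 5 genes left out. Of 180 genes listed, 170 were measured and 129 tested. In limma's additive model, 17 were higher and 15 lower in LR2 than in parental cells, 13 higher and 24 lower in LR3 than in parental cells, and 17 higher and 21 lower in LR3 than in LR2. Among all 10527 genes tested, 21.1% were called in LR2 against parental cells (12.1% higher, 9.01% lower), 19.6% in LR3 against parental cells (8.42% higher, 11.2% lower) and 18.0% in LR3 against LR2 (6.59% higher, 11.5% lower). The median difference of the listed genes was 0.01, 0.00 and -0.04, against 0.02, 0.01 and -0.02 over all genes. The 32 calls for LR2 became 17 to 19 when the untreated or crizotinib array of the parental line, or any LR2 array, was left out. The 37 for LR3 against parental became 16 with the untreated LR3 array left out and 15 with the LR3 ceritinib array left out. The 38 for LR3 against LR2 became 20 or 25 with the untreated or ceritinib array of LR2 left out, and 16 or 10 with that of LR3 left out. Genes named in the next paragraphs kept their call in all 14 alternatives, the left-out arrays included.

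The next list held membrane proteins that ERM proteins anchor. Of 14 tested, 2 rose and 2 fell in LR2 against parental cells, with a list median of 0.05. In LR3, 0 rose and 5 fell against parental cells, with a list median of -0.26, and 0 rose and 5 fell against LR2. Syndecan-2 (SDC2), a heparan sulphate proteoglycan, read 5.93, 5.81 and 5.74 in parental, 5.73, 5.71 and 6.03 in LR2 and 4.34 and 4.12 in LR3 cells. Its LR3 arrays lay below all others, and the gene fell by 1.63 ± 0.13 against parental cells (limma adjusted p = 0.000253). PODXL, a sialomucin tied to ezrin, fell by 0.89 ± 0.09 in LR3 (limma adjusted p = 0.000876). The hyaluronan receptor CD44 read 7.75, 7.92 and 7.97 in parental, 8.43, 8.51 and 8.69 in LR2 and 7.26 and 7.40 in LR3 cells. CD44 thus set the lines apart without overlap, with LR2 highest, 0.66 ± 0.07 above parental cells (limma adjusted p = 0.000961), and LR3 lowest, 1.21 ± 0.09 below LR2 (limma adjusted p = 0.00015). The tetraspanin CD9 rose by 0.47 ± 0.08 in LR2 and fell by 0.79 ± 0.09 from LR2 to LR3 (limma adjusted p = 0.00551 and 0.00145).

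The small GTPase RHOB read 8.46, 7.48 and 7.69 in parental, 7.94, 7.08 and 7.69 in LR2 and 9.38 and 9.29 in LR3 cells. In LR3 it was 1.24 ± 0.15 above parental and 1.54 ± 0.15 above LR2 cells (limma adjusted p = 0.00163 and 0.00061). ARHGDIB rose by 0.90 ± 0.10 in LR3, and PIP5K1B, a kinase that makes PIP2, by 0.75 ± 0.09 (limma adjusted p = 0.00114 and 0.00194). Of 21 tested kinases and phosphatases of ERM proteins, 6 rose and 1 fell in LR2, and 2 rose and 1 fell in LR3. ROCK2, a serine/threonine kinase, rose by 0.67 ± 0.09 in LR2 and CDC42BPB, a CDC42-binding kinase, by 0.52 ± 0.09 (limma adjusted p = 0.00263 and 0.00495).

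**Figure D4:**
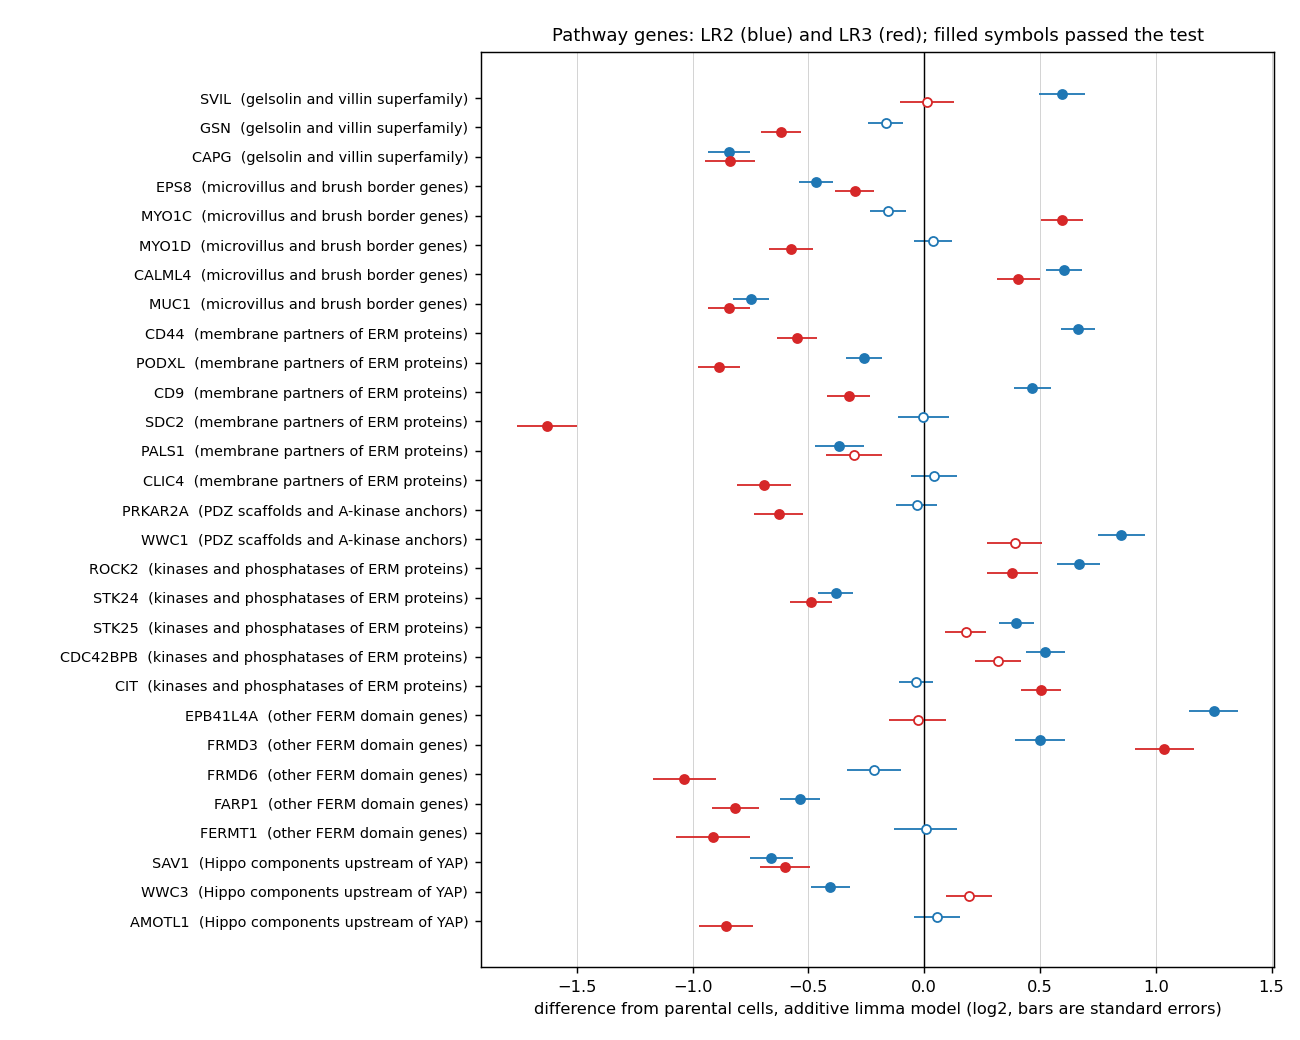
Difference from parental cells in limma's additive model (horizontal axis, log2 units, bars are standard errors) for genes with the largest called differences in 7 of the lists, LR2 in blue and LR3 in red, filled where the test was passed. CD44 lies to the right in LR2 and to the left in LR3, and SDC2 lies at -1.63 in LR3. FRMD3 exceeded the floor in the LR3 arrays alone, so its filled points are not read as a test.

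Villin's relatives were read next. Of 5 tested genes of the gelsolin and villin superfamily, 1 rose and 1 fell in LR2, and 0 rose and 2 fell in LR3 against parental cells. Against LR2, 1 rose and 2 fell in LR3. SVIL rose by 0.59 ± 0.10 in LR2 (limma adjusted p = 0.00531). Gelsolin (GSN), which severs and caps actin filaments, fell by 0.62 ± 0.09 in LR3, and the capping protein CAPG fell by 0.84 ± 0.09 in LR2 and 0.84 ± 0.11 in LR3 (limma adjusted p = 0.00337, 0.000877 and 0.00224). Microvillus and brush border genes split, with 3 rising and 5 falling of 21 in LR2, and 4 rising and 3 falling in LR3. The actin regulator EPS8 fell by 0.47 ± 0.07 and CALML4, a light chain of the brush border, rose by 0.60 ± 0.08 in LR2 (limma adjusted p = 0.00411 and 0.002). The membrane mucin MUC1 fell by 0.75 ± 0.08 in LR2 and 0.84 ± 0.09 in LR3 (limma adjusted p = 0.000765 and 0.0011). MYO1C, a membrane motor, rose by 0.75 ± 0.09 from LR2 to LR3 (limma adjusted p = 0.00165).

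Of 24 tested genes with a FERM domain outside the ERM group, 3 rose and 4 fell in LR2, and 2 rose and 8 fell in LR3 against parental cells. EPB41L4A read 6.24, 6.75 and 6.89 in parental, 7.76, 7.99 and 7.88 in LR2 and 6.42 and 6.66 in LR3 cells. Only LR2 stood apart, by 1.25 ± 0.10 (limma adjusted p = 0.000305). FRMD3 read 4.55, 4.80 and 4.56 in parental, 5.17, 4.97 and 5.27 in LR2 and 5.62 and 5.73 in LR3 cells. It exceeded the floor of 5.36 in the LR3 arrays alone, so its difference of 1.04 from parental cells is given without a test. The list counts include it. Among 20 tested Hippo components upstream of YAP, 1 rose and 2 fell in LR2, and 0 rose and 4 fell in LR3. WWC1, the partner of merlin also called KIBRA, rose by 0.85 ± 0.10 and the scaffold SAV1 fell by 0.66 ± 0.09 in LR2 (limma adjusted p = 0.00138 and 0.00265). The angiomotin AMOTL1 fell by 0.86 ± 0.12 in LR3 (limma adjusted p = 0.00294). Of 9 PDZ scaffolds and A-kinase anchors, 1 rose and 0 fell in LR2, that 1 being WWC1, and 0 rose and 1 fell in LR3.

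The genes next to each of the 5 on its chromosome were read in the same way, 5 measured genes on each side, in the order of RefSeq's annotation of GRCh38.p14. Near MSN, 2 of 10 neighbours were above the floor, and both were higher in LR3 than in parental cells in the untreated and the ceritinib pair, LAS1L by 0.37 and 0.33 and YIPF6 by 0.21 and 0.14. VSIG4, the nearest on the other side, was dim, at -0.06 and -0.59. Near VIL1, 6 of 9 tested were higher in both pairs and 3 lower, from -0.49 to 0.85, with CTDSP1 at 0.12 and 0.28 and USP37 at 0.49 and 0.18 the nearest. Near RDX, 5 of 6 tested were lower in both pairs. There ZC3H12C, the nearest on 1 side, differed by -0.87 and -0.95, and FDX1, on the other, by -0.41 and -0.63. Near NF2, 6 of 7 tested were higher in both, with NIPSNAP1 by 0.73 and 0.60 the nearest on 1 side and CABP7, which was dim, on the other at -0.03 and -0.24. Near EZR, 2 of 7 were lower in both and 0 higher, with SYTL3 at -0.14 and -0.40 and the dim OSTCP1 at -0.24 and 0.21 beside it. Over all genes tested, 38.1% were higher and 33.7% lower in both pairs.

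**Figure D5:**
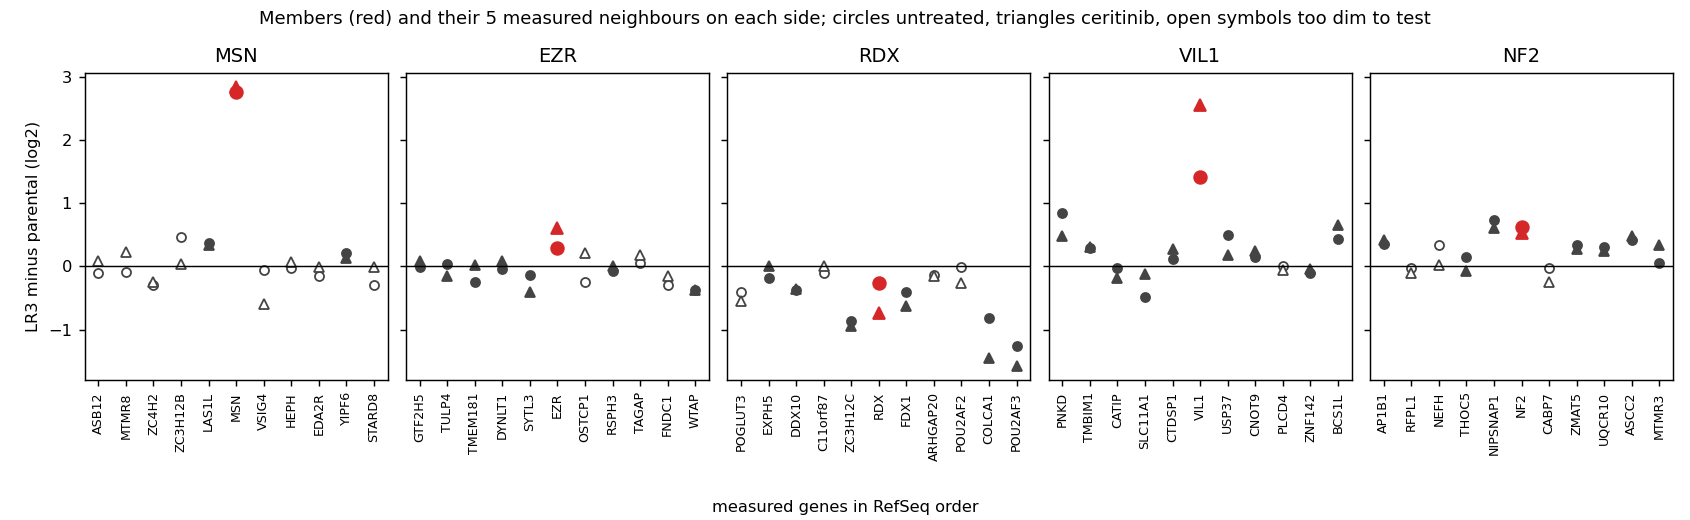
LR3 minus parental difference (vertical axis, log2 units) for the brightest probe set of each of the 5 genes (red) and of the 5 measured genes on each side (grey), in chromosome order, with circles for the untreated pair, triangles for the ceritinib pair and open symbols for genes too dim to test. MSN, at 2.76 and 2.84, and VIL1, at 1.41 and 2.55, stand above their neighbours, while RDX lies among neighbours of which 5 of 6 tested were lower.

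The genes whose pattern over the 8 arrays was most like that of MSN 11715717_s_at, among 1024 tested genes with a range of at least 1 unit, were STEAP4, CCL15, ANXA9, FAXDC2 and IFI35, with Pearson r of 0.977, 0.976, 0.974, 0.971 and 0.969. For VIL1 11729734_a_at they were MAGEC1, TMEM92, TACC3, SLC1A1 and ABCG2, with r of 0.961, 0.952, 0.944, 0.942 and 0.937. CCL15, ANXA9, IFI35 and MAGEC1 exceeded the floor in the LR3 arrays alone, as MSN and VIL1 did. They entered the comparison only through LR3, so their likeness is partly set by the filter. The 8 arrays come from 3 lines, so these values describe which genes separate LR3 in the same order and carry no p.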

How the data were processed

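RNA from 8 conditions was measured on 1 single-colour array each. Per the submitters' processing notes the deposited log2 signals were made with RMA. The version of RMA, and which arrays entered it jointly, are not given in the sources used here. RMA summarises each probe set on a scale set by the arrays processed together. Differences of dim probe sets, whose signal lies near background, may be compressed, and the extent was not measured here. Signals were used as deposited, and array medians lay between 5.31 and 5.46.

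Genes were named from the platform's probe table. Of 49395 probe sets, 102 controls and 4305 with no or several symbols were left out. limma 3.58.1 (R 4.3.3) fitted line and agent additively (3 residual degrees of freedom) to the 23773 probe sets tested. For the lists, each gene was read from this same fit by its brightest probe set. Response differences came from a model of line by inhibitor or none (2 residual degrees of freedom). P-values were two-sided and Benjamini-Hochberg adjusted over all probe sets tested, also for the list genes, and called at 0.05. The code was tested on simulated data.

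The members and lists were chosen with earlier results of these data known. Named were all member probe sets, the nearest neighbours, the 5 most alike genes, and from each list up to 3 called genes with the largest difference. Of the latter, the text gives most of those that kept their call in every alternative, a limit set after their values were seen. Of the 8 lists, 1 enters only the totals, and its own counts are not reported here. Promoter sequences are RefSeq's (GRCh38.p14), with 4 of the 5 genes matched. Alternatives covered the floor, normalization, centring, variance prior, probe set choice, agent term and each array left out.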

Additional observations from a re-analysis of the deposited data

How the results depend on the processing

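With 1 array a condition, each line contrast rests on 2 or 3 arrays a line, and MSN and VIL1 lay near background outside LR3. The alternatives were counted over all 17 probe sets, including those of MSN and VIL1 that passed the floor through the LR3 arrays alone. The limma count for LR2 against parental cells was 4, beside 21.3% called over all probe sets tested. It is given as a base for the alternatives and is not read for MSN or VIL1. This count became 2 with 1 probe set a gene, 6 with an intensity trend and robust prior, and 1 to 5 with 1 array left out. For crizotinib the count of 0 became 2 with an intensity trend and robust prior, and 0 to 5 with 1 array left out. Counts for ceritinib and for both response differences stayed at 0 in the 13, 11 and 10 alternatives run. Pathway counts with 1 array left out were 17 to 29 for LR2 against parental, 15 to 37 for LR3 against parental and 10 to 44 for LR3 against LR2. Averaging all probe sets of a gene lowered MSN from 2.79 to 1.99 (LR3 against parental) and from 3.38 to 2.36 (LR3 against LR2), and VIL1 from 1.94 to 0.825 and from 1.71 to 0.702. With 1 array left out, MSN ran from 2.65 to 2.92 and 3.25 to 3.53, and VIL1 from 1.37 to 2.51 and 1.14 to 2.27, in the same contrasts. The LR2 minus parental difference, not called, changed sign with 1 array left out for NF2 on 11733352_a_at (-0.0967 to 0.1247), NF2 on 11742198_x_at (-0.036 to 0.24) and EZR on 11742988_s_at (-0.0547 to 0.228). Of 59 named pathway results, 30 kept their call in every alternative, 29 lost it in some and 0 reversed. The response models restricted to ceritinib and untreated arrays were not run, since no residual degrees of freedom remained, and a response model without the only untreated array of a line in it could not be fitted. Arrays were matched by agent, and the additive fit has agent as a term, but no block by replicate number was possible because the labels number no replicates.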
